A study of Mus musculus with 48 samples.

Results

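Trim12c is a mouse member of the tripartite motif (TRIM) family of E3 ubiquitin ligases and one of the mouse relatives of TRIM5, a protein known for restricting retroviruses. The tables of the series list 21 adenosines in its 3′ UTR as known A-to-I editing positions, out of 48715 positions in all, and every position whose gene was given as Trim12c was kept. The gene is transcribed from the minus strand of chromosome 7, and all 21 carried the annotation 3′ UTR. Coverage went above 100 reads in 1 library or more at 10 of them. The other 11 never had more than 17 reads in any library, so no editing level was computed for them.

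The 48 libraries came from 12-week-old male C57BL/6 mice, with 3 independent animals for each of 2 genotypes in each of 8 tissues: bone marrow (BM, haematopoietic cells), spleen, thymus, liver, kidney, small intestine, heart and whole brain. The control genotype, called WT, was Adar1+/+ on an Ifih1-/- background. The mutant, called E861A, was Adar1E861A/E861A on the same Ifih1-/- background. ADAR1 in the E861A animals carries a point mutation in the deaminase domain that abolishes editing while the protein is still made, in every cell and throughout life, and animals of both genotypes lack Ifih1 (MDA5), so the control is not a fully wild-type mouse. The comparison asked which sites in which tissues need editing by ADAR1. The assay reads only amplified stretches of cDNA, and the identity of the tissues could not be checked against marker genes.

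A-to-I editing is the deamination of adenosine in double-stranded RNA by ADAR1 and ADAR2, and the product, inosine, is read as guanosine by reverse transcriptase. Many substrates lie in 3′ UTRs, where inverted repeats fold back on each other. ADAR enzymes are known to favour an adenosine that follows U or A and precedes G, and to disfavour one that follows G. The editing level below is the share of reads with G among the reads of a position, in percent, and only libraries with more than 100 reads at the position were used. Because reads were PCR products and no molecular identifiers were used, intervals and limits drawn from read numbers cover counting error only.

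In the mm9 genome and the GENCODE annotation, Trim12c spans chr7:111487268-111501876, and its last exon, chr7:111487268-111489887, ends in a 3′ UTR of 2024 bases, chr7:111487268-111489291. The 11 positions without coverage all lay between chr7:111487679 and chr7:111487793. The covered positions flanked them: chr7:111487638 alone on the 3′ side, and 9 positions from chr7:111487794 to chr7:111487840 on the 5′ side. Of the 21, the position most edited in WT was chr7:111487820, called the leading site from here on, and 8 of the covered positions including it fell within 30 bases. The window below shows these 8 adenosines in capitals, 5′ to 3′ on the minus strand (chr7:111487793-111487822), with the leading site as the first capital; the second line is the stretch further along the same 3′ UTR (chr7:111487531-111487560) with which they pair in a predicted fold, with the predicted partner bases in capitals.
edited window: uuAgugAucacuuucuuuAgucAcAAuAAa
predicted partner: UUaUcacUgUgacUaaauuaaaugaUcauU

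The fold was the minimum free energy structure of the 3′ UTR reference sequence from RNAfold, a prediction and not a measurement. In it the leading site paired with the U at chr7:111487531, with 288 bases between them. Of the 10 covered positions 9 were paired, and of all 21 listed positions 18, whereas 48.8% of the 670 adenosines of the 3′ UTR were paired. The unpaired covered position was chr7:111487638.

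The bases next to the covered adenosines differed. The leading site followed U and preceded G, as did chr7:111487804, which lies 16 bases downstream along the transcript. Among the 10 covered positions, 3 followed U and 4 preceded G, while over the 7339 positions of the whole series with more than 100 reads in a library 19.3% followed U and 33.8% preceded G. Both chr7:111487816 and chr7:111487840 followed G.

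A copy of a site elsewhere in the genome can add reads from another locus, so exact copies of the 21 bases centred on each position were counted on both strands, with A or G at the site. The leading site had 0 such copies. Its 21 bases are shown here with the site in capitals.
leading site: guguauucuuAgugaucacuu
Among the covered positions, chr7:111487804 had 1 copy and chr7:111487638 had 2, all with A in the genome, and 0 of the 10 had a copy with a genomic G. Over all covered positions of the series, 34.6% had a copy and 19.6% had a copy with G.

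Read depth set where editing could be compared. Depth in this PCR assay is no measure of expression. Poor amplification, fewer cells of a type and less Trim12c RNA per cell cannot be told apart in these bulk tissues. The leading site had more than 100 reads in 42 of 48 libraries, 20 WT and 22 E861A. The 6 libraries below this minimum were kidney WT 1 and E861A 1 and 3, BM WT 2, and brain WT 2 and 3, in which all 21 positions were below it. The lowest coverage at the leading site was 3 reads and the highest 4244. The sum of coverage over all positions of a library ran from 1861831 (BM WT 2) to 11394093, and a read is counted there once for each position it spans.

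Over the other edited sites of their tissue, 3 WT libraries had mean editing levels like those of the E861A libraries. These were small intestine WT 2 with 0.982% against 5.74% and 11.0% in the other WT libraries, thymus WT 3 with 0.936% against 5.01% and 10.5%, and heart WT 2 with 2.05% against 5.37% and 9.60%. The E861A means were 0.508% to 1.34% in small intestine, 0.456% to 0.776% in thymus and 1.47% to 1.83% in heart. For small intestine WT 2 and heart WT 2 the levels at the leading Trim12c site were as low, whereas thymus WT 3 was at 27.1% there. The labels were kept as deposited, the cause was not tested, and the WT values of these tissues are given with and without them.

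The leading site was edited above 1% in 18 of the 20 WT libraries with enough reads, in all 8 tissues, and in 0 of the 22 E861A libraries. Over all libraries with enough reads, the WT levels ran from 0% to 76.8% with a median of 42.8%, and the E861A levels from 0% to 0.706% with a median of 0.0433%. Put as reads, G was seen in 13327 of 30783 WT reads and in 56 of 42216 E861A reads. Trim12c was shown by the study as an example chosen on these libraries, so the direction of this difference is not independent evidence.

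Spleen had all 6 libraries covered. Its WT libraries 1 to 3 were edited at 48.3%, 62.1% and 50.4%, on 1134, 1659 and 1813 reads. The E861A libraries were at 0.388%, 0.161% and 0%, on 2064, 1862 and 2367 reads. The groups did not overlap, and the mean fell from 53.6% ± 7.46 (SD, n = 3) to 0.183% ± 0.195 (SD, n = 3). The log2 ratio of edited to unedited reads fell by 6.63 ± 0.42 (SE), with a limma adjusted p of 5.26e-09. Here and below, this ratio carries an offset of 0.01 on both shares, which makes falls to near 0% look smaller. Among the 284 edited sites tested in spleen, the leading site had the highest mean WT level and the largest fall, beside a median change of -0.90 over all of them.

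BM gave 2 WT libraries with enough reads, at 68.8% and 48.0% on 2178 and 1934 reads. WT 2 had 3 reads there and was left out of the fit as a missing value. The E861A libraries were at 0%, 0% and 0.143%, on 1830, 2932 and 2792 reads. The lowest WT library was thus far above the highest E861A library. The mean went from 58.4% ± 14.7 (SD, n = 2) down to 0.0478% ± 0.0827 (SD, n = 3), and the log2 ratio fell by 7.09 ± 0.54 (SE; limma adjusted p = 0.00104). Of 538 edited sites in BM, 6 had a higher mean WT level than the leading site, and 5 had a larger fall. The median change over all of them was -1.30.

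In liver the WT libraries were at 47.1%, 52.7% and 28.0%, on 2983, 1821 and 1780 reads. The E861A libraries were at 0%, 0.0408% and 0.0385%, on 687, 2452 and 2600 reads. WT 3 was the lowest WT library and still stood far above the E861A libraries. The mean fell from 42.6% ± 12.9 (SD, n = 3) to 0.0264% ± 0.0229 (SD, n = 3), and the log2 ratio by 6.17 ± 0.70 (SE; limma adjusted p = 0.00896), beside a median change of -1.02 over the 677 sites tested. On the untransformed level the call was lost, with a limma adjusted p of 0.225.

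The thymus groups did not overlap either, but the site did not pass the threshold. Its WT libraries were at 43.2%, 40.7% and 27.1%, on 2465, 3336 and 936 reads. The E861A libraries were at 0.706%, 0% and 0.362%, on 2834, 1430 and 1659 reads. The WT mean was 37.0% ± 8.67 (SD, n = 3) beside an E861A mean of 0.356% ± 0.353 (SD, n = 3), a log2 change of -5.48 ± 0.96 (SE), with an unadjusted p of 0.000217 from limma and an adjusted p of 0.115. This was the smallest adjusted p among the 529 sites tested in thymus, and 1 site had a larger fall. Without WT 3, which carried the low mean level described above, the WT mean was 42.0%, the change -5.79 ± 0.37 (SE) and the adjusted p 0.00246. With all 3 WT libraries, a quasi-binomial model of the reads gave an adjusted p of 0.0345.

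Small intestine held 1 WT library without editing at the leading site. WT 1 and WT 3 were at 42.0% and 42.0%, on 1768 and 752 reads, while WT 2 had 0 edited of 1482 reads, which allows a level of up to 0.202%. The E861A libraries were at 0%, 0.141% and 0.0257%, on 447, 4244 and 3896 reads. WT 2 therefore lay within the E861A range, and the groups overlapped. The WT mean was 28.0% ± 24.2 (SD, n = 3) beside an E861A mean of 0.0557% ± 0.0753 (SD, n = 3), a log2 change of -4.06 ± 2.41 (SE; limma adjusted p = 0.559). Without WT 2 the change was -6.12 ± 1.10 (SE) and the adjusted p was 0.0629, with the 2 remaining WT libraries at a mean of 42.0%.

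Heart showed the same kind of split. WT 1 and WT 3 were at 42.4% and 33.1%, on 1586 and 1526 reads, and WT 2 had 1 edited read, a level of 0.685% (exact 95% interval 0.0173% to 3.76%). The E861A libraries were at 0.0459%, 0% and 0.0615%, on 2180, 652 and 1626 reads. WT 2 was above each E861A library by its point value, but its interval reached down to their levels. The WT mean was 25.4% ± 21.9 (SD, n = 3) beside an E861A mean of 0.0358% ± 0.0320 (SD, n = 3), a log2 change of -4.17 ± 1.61 (SE; limma adjusted p = 0.566). Without WT 2 it was -5.89 ± 0.97 (SE), with an adjusted p of 0.0757.

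Kidney and brain had too few libraries above 100 reads for a test at the leading site. In kidney, WT 2 and WT 3 were at 47.4% and 28.1%, on 190 and 928 reads, and E861A 2, the single E861A library with enough reads, had 1 edited of 262 reads, a level of 0.382% (exact 95% interval 0.00966% to 2.11%). In brain, WT 1 had 281 edited of 366 reads, the highest level of any library at 76.8% (exact 95% interval 72.1% to 81.0%). The 3 brain E861A libraries were at 0%, 0.156% and 0.0816%, on 895, 1279 and 1226 reads.

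The libraries below the minimum pointed the same way and did not enter the means above. In kidney WT 1, 28 of 52 reads were edited, while E861A 1 and 3 had 0 edited of 30 and of 8 reads. In brain WT 2 and WT 3, 37 of 84 and 8 of 33 reads were edited. In BM WT 2, 1 of 3 reads was edited. Brain WT coverage at this position was thus low in all 3 libraries, 33 to 366 reads, against 895 to 1279 in brain E861A.

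**Figure D1:**
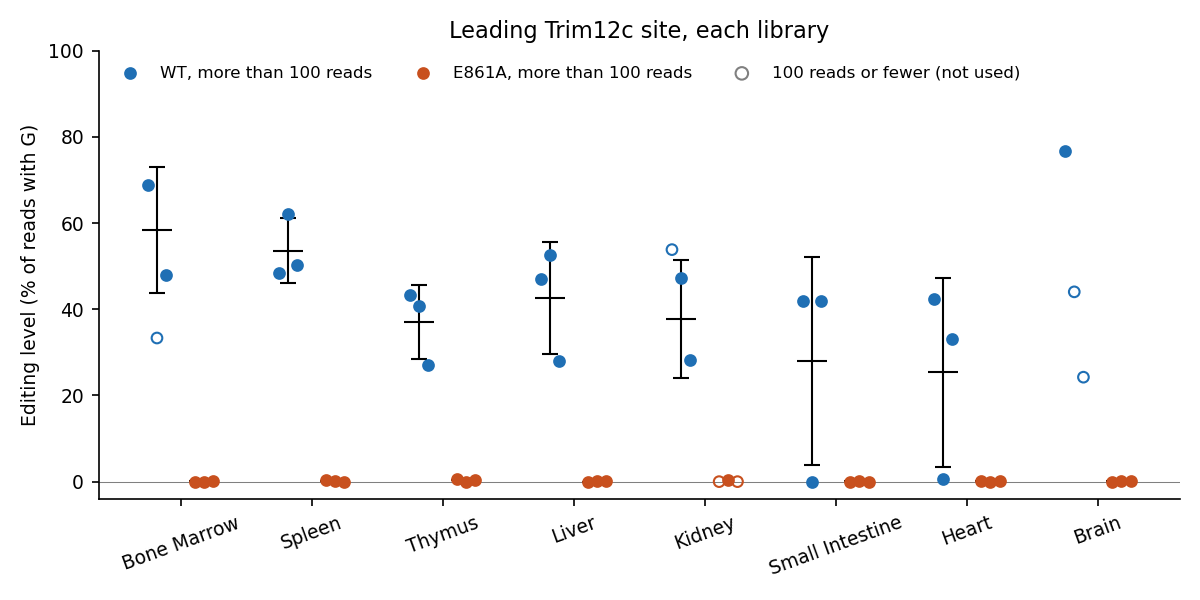
Editing level at the leading Trim12c site in each library, by tissue and genotype, in percent of reads with G; filled points are libraries with more than 100 reads, open points the others, and black bars the mean ± SD of the filled points of a group with at least 2. Every E861A library lies at or near 0%, and small intestine WT 2 and heart WT 2 lie there too, at 0% and 0.685%.

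Whether a Trim12c site changed was read against all sites of the tissue. Of the sites tested, 27.0% were lower in E861A in BM, 9.75% in liver and 8.45% in spleen with a limma adjusted p under 0.05, and 0% in thymus, small intestine and heart. Over these 6 tissues, 14 tests of Trim12c sites were made, 6 at the leading site and 8 at 3 others. The leading site passed in BM, liver and spleen. All 14 entered through a WT level above 1% in the summed reads, while no E861A group was above it, so for the other sites the lower level in E861A was largely set by this filter. Without it, the leading site passed in the same 3 tissues (limma adjusted p = 0.0237 in BM, 0.0437 in liver and 0.00625 in spleen), and 54 tests were made at the other positions, of which 37 had the lower level in E861A and 0 passed. The shares of all sites given above belong to the fit with the filter. With the filter, none of the 8 other tests passed, and 2 of them, in spleen, had an unadjusted p under 0.05. In thymus, small intestine and heart, where limma called 0 sites of any gene, 75, 2 and 21 sites had an unadjusted p under 0.05, the leading site among those of thymus and heart.

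**Figure D2:**
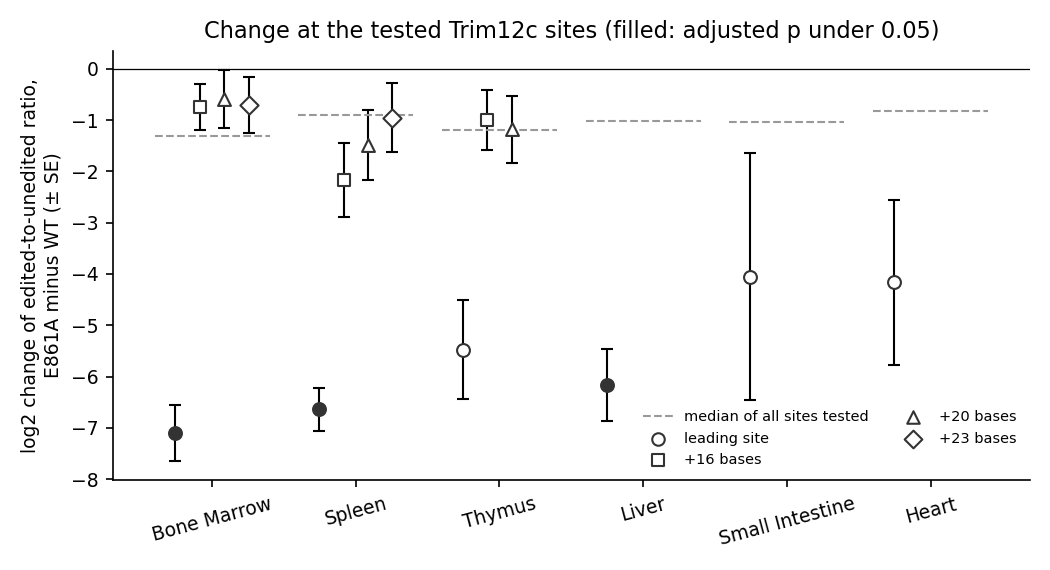
Change of the log2 ratio of edited to unedited reads (offset 0.01), E861A minus WT, with SE, for each Trim12c site tested in a tissue. Dashed lines mark the median over all sites tested there. Filled symbols passed the threshold, which the leading site did in BM (-7.09), spleen (-6.63) and liver (-6.17), and the 8 tests of the other sites lie between -0.59 and -2.17.

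Differences of the effect between tissues were tested with an interaction contrast against spleen, in which all 6 libraries were covered. At the leading site the effect in BM, liver, thymus, small intestine and heart was compared with that in spleen, and in 0 of 5 comparisons did it pass (limma adjusted p between 0.579 and 0.738, 0 with an unadjusted p under 0.05). Of all sites, 11.5% passed for BM, 5.34% for liver and 0% for thymus, small intestine and heart. The estimates ranged from a change more negative than in spleen by 0.46 ± 0.60 (SE) in BM to one less negative by 2.58 ± 2.04 (SE) in small intestine. Every E861A mean here lay below the offset of 0.01, so these contrasts largely repeat the WT differences from spleen. For heart the contrast was 2.47, and the WT difference from spleen was -2.65.

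The order of the WT means was brain (76.8%, 1 library), BM (58.4%), spleen (53.6%), liver (42.6%), kidney (37.7% ± 13.6, SD, n = 2), thymus (37.0%), small intestine (28.0%) and heart (25.4%). None of the 21 pairs of the 7 tissues with at least 2 WT libraries differed at the leading site with a limma adjusted p under 0.05, so no neighbours among these 7 differed beyond their spread. Brain, with 1 library, was not tested against BM. Of all sites, the share that passed against spleen was 22.5% for kidney, 10.4% for BM, 9.85% for liver and 0.209% for heart. It was 5.97% between heart and kidney, 3.95% between BM and kidney, 2.35% between BM and heart and 1.10% between kidney and thymus. It was 0.291% between heart and liver, 0.188% between heart and small intestine, 0.138% between liver and thymus, and 0% in the other 10 pairs. At an unadjusted p under 0.05, 3 pairs differed, all with the higher level in spleen. The log2 ratio differed by 0.98 ± 0.26 (SE) for spleen minus thymus, -2.65 ± 1.05 for heart minus spleen and -2.73 ± 1.19 for small intestine minus spleen. Without small intestine WT 2 and heart WT 2, the small intestine mean was 42.0% and the heart mean 37.7%, which placed both close to the means of liver, kidney and thymus. Single libraries moved a pair over the threshold: spleen and thymus differed without thymus WT 1 or without thymus WT 2, and heart and spleen without heart WT 3, in each case 1 of the 6 pairs refitted. The pair fits took libraries of different tissues as independent, which was not checked. With replicate number as a block, spleen and thymus passed.

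A second tier of sites was at 1.04% to 4.16% in the summed WT reads of a tissue, mostly close to the 1% limit that selected it. At a level above 1% from the summed reads, 16 site and tissue combinations were edited in WT and 0 in E861A. The same was not counted over all positions of the series. Of the 16 combinations the leading site made up 8, 1 in each tissue. The other 8 were chr7:111487804 and chr7:111487800 in BM, spleen and thymus and chr7:111487797 in BM and spleen, which lie 16, 20 and 23 bases downstream of the leading site. A difference between tissues was not shown at these sites: of 41 tests between pairs of WT tissues at positions other than the leading site, 0 passed (lowest limma adjusted p = 0.144, 1 with an unadjusted p under 0.05). Of 15 interaction tests against spleen, 0 passed (lowest adjusted p = 0.305, 5 with an unadjusted p under 0.05).

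The site chr7:111487804 was the highest of these in spleen. Its WT levels there were 2.94%, 7.64% and 1.70%, against 0.0501%, 0% and 0.0872% in E861A, without overlap. The mean was 4.09% ± 3.13 (SD, n = 3) in WT, and the log2 change of -2.17 ± 0.73 (SE) did not pass (limma adjusted p = 0.0819). In BM its WT levels were 1.31% and 0.749%, above each of the E861A levels of 0.169%, 0.248% and 0.223%. In thymus they were 2.07%, 1.28% and 0.332%, against 0.0366%, 0% and 0.187%, and WT 3 was again the lowest WT library. Over the 8 tissues, 15 of 20 WT libraries were above every E861A library of their tissue at this position. This number was 13 at chr7:111487797 and 10 at chr7:111487800. At the covered positions without a level above 1% in any library it was 0 to 7. It was not counted over all sites.

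At chr7:111487800 the spleen WT levels were 1.98%, 3.37% and 1.57%, against 0.230%, 0.152% and 0.162% in E861A. The log2 change was -1.48 ± 0.68 (SE; limma adjusted p = 0.213). In thymus its WT levels were nearly the same in all 3 libraries, 1.77%, 1.72% and 1.63%, against 0.236%, 0.133% and 0.283% in E861A (adjusted p = 0.347). In BM the 2 WT libraries were at 1.67% and 1.05%, and E861A 2, at 1.07%, lay between them, so the groups overlapped. This E861A library was the single one above 1% at any Trim12c position.

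At chr7:111487797 the WT levels were 1.37%, 2.49% and 0.114% in spleen and 1.97% and 0.259% in BM. The E861A levels were 0.0541% to 0.146% in spleen and 0.144% to 0.220% in BM. Spleen WT 3 lay within the E861A range while both BM WT libraries lay above it, and neither change passed (limma adjusted p = 0.405 in spleen and 0.376 in BM).

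Single libraries carried part of this tier. Without thymus WT 3, all 3 low sites passed in thymus (limma adjusted p between 0.0239 and 0.0481), and with the leading site the number of site and tissue pairs called lower went from 3 to 7. In that fit 39.8% of all thymus sites were lower in E861A. Without spleen WT 3, chr7:111487804 and chr7:111487800 passed in spleen (adjusted p = 0.00766 and 0.0255), 5 pairs in all, beside 26.7% of all spleen sites. When all 48 libraries were fitted together, with a common spread, 10 pairs were called, 4 of them at these sites. Of all sites, 40.3% were lower in E861A in BM in that fit, 30.3% in liver, 22.5% in spleen, 16.8% in thymus, 9.93% in small intestine and 4.26% in heart.

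**Figure D3:**
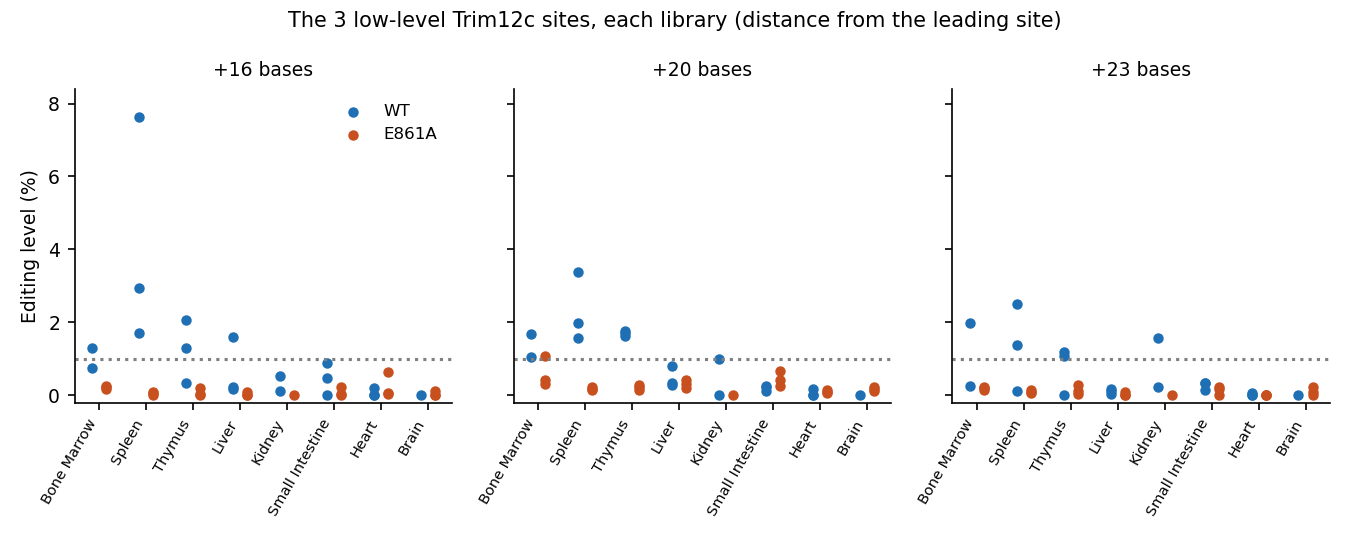
Editing level in each library with more than 100 reads at the 3 low-level Trim12c sites, 16, 20 and 23 bases downstream of the leading site, by tissue and genotype; the dotted line marks 1%. The spleen WT libraries reach 7.64%, 3.37% and 2.49%, and the E861A libraries stay under 1% except BM E861A 2 at 1.07% in the middle panel.

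The remaining 6 covered positions showed no level above 1% in any library of either genotype. Pooled over libraries, chr7:111487816, 4 bases downstream of the leading site and preceded by G, was at 0.237% in WT and 0.230% in E861A. The position chr7:111487840, 20 bases upstream and also preceded by G, was at 0.192% and 0.244%. The positions chr7:111487798, 22 bases downstream, and chr7:111487638, beyond the gap in coverage, were at 0.0983% and 0.151%, and at 0.126% and 0.132%.

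At 2 positions nearly no G was read. At chr7:111487795, 25 bases downstream, G was in 0 of 28592 WT reads and 1 of 39834 E861A reads. At chr7:111487794, 26 bases downstream, it was in 5 of 26222 WT reads and 0 of 43971 E861A reads, and a count of 0 on that depth allows up to 0.00682%.

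The E861A libraries give the control level at each position, in which read errors and editing by ADAR2 cannot be told apart. Pooled over 22 libraries, they held G at between 0% and 0.320% at the 10 positions. The leading site, at 0.133%, lay inside this range. The highest value, 0.320%, was at chr7:111487800, with 0.103% and 0.0959% at chr7:111487804 and chr7:111487797.

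**Figure D4:**
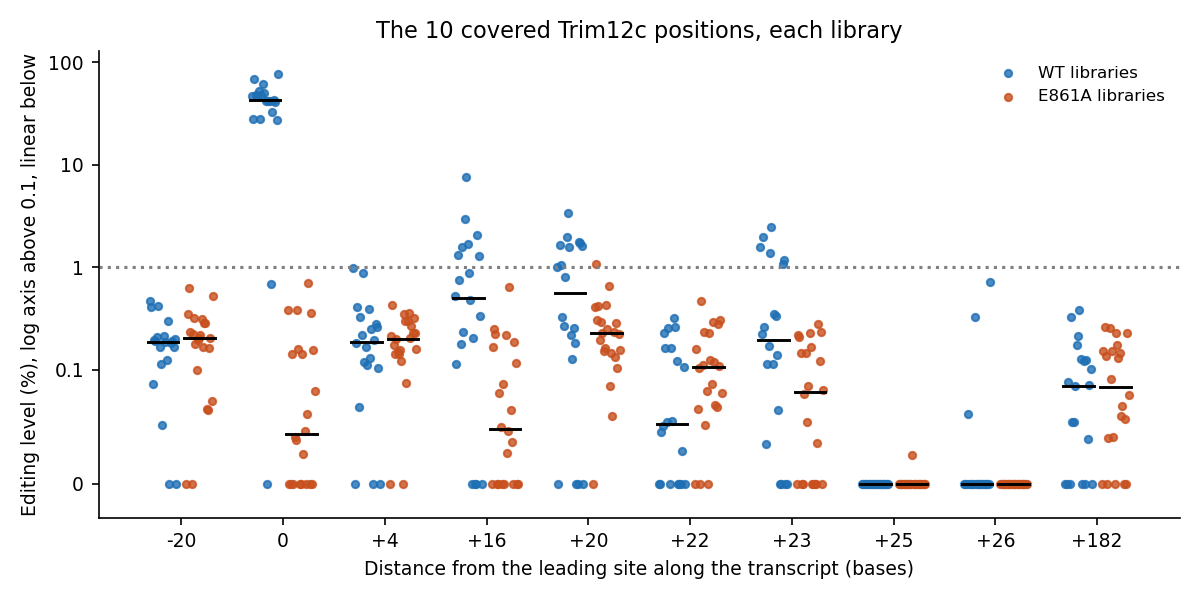
Editing level in each library with more than 100 reads at the 10 covered Trim12c positions, ordered by distance from the leading site along the transcript, with black lines at the medians; the axis is logarithmic above 0.1% and linear below, and the dotted line marks 1%. WT and E861A part widely at the leading site (medians 42.8% and 0.0433%), partly 16, 20 and 23 bases downstream, and hardly at the other 6 positions.

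Relative coverage stood apart in most WT libraries at chr7:111487794. At this position, the covered position next to the gap, coverage divided by the median coverage of the other 9 covered positions was 0.997 to 1.02 in the 22 E861A libraries. In the 20 WT libraries it was 0.377 to 1.02 with a median of 0.870, and 18 of them were below the lowest E861A library. The 2 exceptions were small intestine WT 2 (1.01) and heart WT 2 (1.02), the libraries with the lowest editing at the leading site. The lowest values were brain WT 1 (0.377), spleen WT 2 (0.546) and BM WT 1 (0.621), which were also the libraries with the 3 highest levels there, at 76.8%, 62.1% and 68.8%. The order did not hold throughout: liver WT 2, edited at 52.7%, had a ratio of 0.979, and thymus WT 3, at 27.1%, had 0.835. A relation between the 2 measures was not tested. At the other covered positions at most 1 WT library was below the lowest E861A library. Small differences in the other direction were seen too: the WT median was above the highest E861A ratio at the leading site (0.987 against 0.974) and, by less, at chr7:111487798 and chr7:111487840. These ratios share coverage values, since the median of the other positions includes chr7:111487794. The neighbouring position chr7:111487793 had at most 17 reads.

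**Figure D5:**
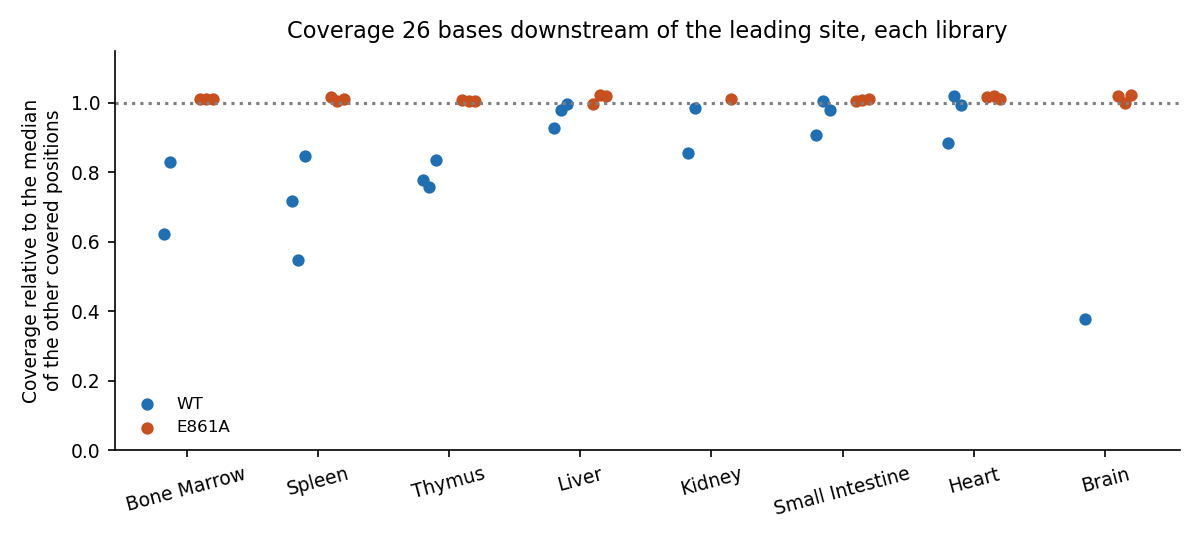
Coverage of the outermost covered position of the block, 26 bases downstream of the leading site, divided by the median coverage of the other 9 covered Trim12c positions, for each library by tissue and genotype. The E861A libraries lie between 0.997 and 1.02, and 18 of 20 WT libraries lie below them, down to 0.377 in brain WT 1.

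Other TRIM genes gave no comparison. The tables list 41 positions in 11 further genes of the family, among them Trim12a with 2 positions, and 0 of the 41 had more than 100 reads in a library. Genes of nucleic-acid sensing and the interferon response were taken from a list of 30, of which 5 were listed and 2 covered: Adarb1, which encodes ADAR2 and edits its own transcript, and Ifnar1, a receptor chain for type I interferon. Their tested sites were all intronic, 2 to 10 per tissue, and 0 passed in any tissue in either direction. Of all sites tested, 17.1% were lower in E861A in kidney and 0% in brain, where 9 and 10 sites of the list were tested, and the shares in the other 6 tissues are those given above.

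The level in E861A varied between the sites and tissues of these 2 genes, and no test set them against the Trim12c site. In brain, the Adarb1 site chr10:76786805 was at a mean of 77.0% in WT and 82.4% in E861A (limma adjusted p = 0.874, n = 3 each). In liver it was at 36.2% and 60.5% (adjusted p = 0.383), and in thymus at 11.5% and 0.781% (adjusted p = 0.378). The Ifnar1 site chr16:91490680 was at 11.3% in WT and 0.174% in E861A in liver (adjusted p = 0.554). The median log2 change over the sensing list was -0.29 in brain, where all 10 sites were in Adarb1. It was 0.86 over 8 sites in liver and -1.54 over 3 sites in thymus. Over all sites tested there it was -0.12, -1.02 and -1.19. In the other tissues the list median ran from -1.23 in kidney to -0.02 in spleen, beside -1.26 and -0.90 over all sites. These few sites of 2 genes do not describe a class of genes.

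The sites most like the leading site were sought by the smallest root mean square difference of levels over the libraries that both cover, among 4949 sites with enough shared libraries. The nearest was in the 3′ UTR of Malt1, a protease of lymphocyte NF-κB signalling, with a difference of 17.4 percentage points over 40 libraries. Its levels were 0% to 59.4% (median 15.7%) in WT and 0% to 1.81% in E861A. Next came chrX:53840820 in Mmgt1, a membrane protein gene (19.8 points, 41 libraries, WT median 12.7%), and chr1:37499238 in Mgat4a, a glycosyltransferase gene (19.9 points, 40 libraries, WT median 13.4%). All 3 lie in 3′ UTRs and were near 0% in E861A, and their WT medians were well below the 42.8% of the leading site.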

How the data were processed

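RNA from each tissue was reverse transcribed, amplified by microfluidic multiplex PCR at known editing sites and sequenced (mmPCR-seq). Per the labels, the authors' processing notes name STAR, SAMtools and the mm9 build. The deposited tables give, for each library and position, the count of reads covering it (coverage) and the count of edited reads, both raw, and the authors' editing level as a fraction of these. The level was recomputed from the counts where coverage was above 100. Strand and gene were taken as deposited, and the reference base was A at all 48715 positions of mm9. Of the deposited files, 2 whole-series matrices were not used.

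Levels were transformed as log2((level + 0.01)/(1 - level + 0.01)), an offset that understates changes of low levels, and tested in each tissue with limma 3.58.1 (lmFit, eBayes with trend) in R 4.3.3, E861A minus WT. A site was tested when covered in at least 2 of 3 libraries of both genotypes and above 1% in the summed reads of either. P-values were adjusted by Benjamini-Hochberg over all sites of the tissue, with a threshold of 0.05. Pairs of WT tissues and interactions with spleen were fitted likewise. The methods of the study describe the replicates as independent biological replicates. The scripts were tested on simulated data. Folding used RNAfold 2.7.2, and the sequences came from mm9 with GENCODE annotation; other steps used Python 3.11.15, pandas 2.3.3, numpy 2.4.6 and scipy 1.17.1. Named sites were all covered Trim12c positions, the leading site in full, the 3 sites nearest to it in level, and TRIM or sensing genes with a site past the threshold; there was no such gene, and the Adarb1 and Ifnar1 sites were named after their values were seen. The members and lists were chosen with earlier results of these data known. Alternatives varied the minimum coverage, offset, edited limit, scale, model, samples fitted and replicate block, and left out each library in turn.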

Additional observations from a re-analysis of the deposited data

Results flagged for a closer look

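Coverage served as the denominator of the editing level and for the minimum of 100 reads, and was not itself a measurement the study compared. It stood apart in most WT libraries at chr7:111487794, 26 bases downstream of the leading Trim12c site. Relative to the other covered positions, 18 of 20 WT libraries had less coverage there than the lowest of 22 E861A libraries. The number was 17 with the leading site alone as the reference, an alternative chosen after seeing the data. The cause was not tested. Groups held 3 libraries, too few for a test of single outlying libraries.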

How the results depend on the processing

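No change between genotypes reversed. The order of WT means did move: kidney was at 43.1% above 50 reads and 28.1% above 500. At the leading site the calls in BM and spleen held under each of the 16 and 19 alternatives that gave a value. The interaction with spleen had 0 calls, also in each of its 38 alternatives, most of which refitted a single comparison. The 3 site and tissue pairs lower in E861A became 5 with coverage above 500 reads, with an offset of 0.001 or in a quasi-binomial model. They became 4 without the trend, with an edited limit of 0.05 or by the methods' criterion, and 2 on the untransformed level. They were 10 in a fit over all 48 libraries and 2 to 7 when single libraries were left out. Without the 3 WT libraries of low mean level they were 7, an alternative chosen after seeing the data. Of these settings, shares over all sites were given above only for the fit over all 48 libraries and without thymus WT 3 or spleen WT 3. In liver the adjusted p was 0.225 on the untransformed level and 0.0516 with the replicate block. In heart it was 0.0168 above 500 reads and 0.0174 over all 48 libraries, and in small intestine 0.0163 over all 48. In thymus it was 0.00904 above 500 reads, 0.00813 with all 3 libraries covered, 0.0233 with an edited limit of 0.05, 0.00896 with an offset of 0.001, 0.0126 without the trend, 0.0345 in the quasi-binomial model, 0.00151 over all 48 libraries, 0.00851 with the replicate block, and 0.00246 to 0.360 with 1 library left out. The unadjusted F test of the methods' criterion gave 0.00185 there. Of the WT tissue pairs, 1 passed with the replicate block (spleen and thymus), and 0 to 1 with a library left out. The WT brain level was 60.4% with more than 50 reads, and 8 pairs were edited in WT above a limit of 0.05. For these settings the cause was not tested.

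Between WT and E861A within a tissue, replicate numbers did not pair the libraries: 2 of 24 same-number correlations were over 0.1. Whether the same number marks the same animal in different tissues was not checked. Depth limited kidney, never tested, and brain, tested above 50 reads (limma adjusted p = 0.119). BM gave no test at the leading site without WT 1 or WT 3.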
